A study of Homo sapiens with 9 samples.

Results

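Lysosomal hydrolases are the enzymes that break down proteins, sugars and lipids inside the lysosome, and their activators are the small luminal proteins that present lipids to them. A list of 42 human genes of this kind was matched by gene symbol and Entrez gene number to the rows of a read count table, and 36 of the 42 were present. The table holds 12798 features, of which 11746 carry an Entrez number and 11064 had enough reads to be tested, and all 36 genes were among those tested. CTSF, CTSO, CTSZ, DPP7, MAN2B1 and NEU1 have no row in the table and are not analysed here. By what they do, the 36 genes are 10 proteases, 8 glycosidases, 5 sulfatases, 5 lipid hydrolases, 3 activators or lipid transfer proteins, and 5 other lysosomal proteins.

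The genes were compared in HepG2 cells, a human liver cancer line that is used as a model of hepatocytes, after loss of KEAP1. All cells had been transduced with a lentiviral vector that carries Cas9 and 1 guide RNA, and had been selected with puromycin, so the control cells carry Cas9 and a guide as well. In sgCtrl cells the guide cuts AAVS1, a site used as a neutral target. In sgKeap1-1 and sgKeap1-2 cells it cuts KEAP1 at different places. Each group had 3 libraries, numbered 1 to 3, made from RNA collected 48 h after seeding. The study describes transduced and selected cells and does not say that single clones were picked. Libraries with the same number share a prefix in their descriptions whose meaning is not stated. Nothing in the labels says that the 3 libraries of a group came from separate cultures, so the p-values measure the spread between these libraries, and both guides are compared with the same 3 sgCtrl libraries.

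KEAP1 is the adaptor through which a ubiquitin ligase keeps the transcription factor NRF2 at a low level, and cells without KEAP1 accumulate NRF2. Lysosomal hydrolases are made in the endoplasmic reticulum, tagged with mannose 6-phosphate in the Golgi and carried to the lysosome, where an acid pH activates them. Many of their genes are known targets of the transcription factors TFEB and TFE3, which bind an E-box motif in their promoters, and inherited loss of a single hydrolase causes a lysosomal storage disease. The question put to the data was whether the mRNAs of this enzyme set differ after loss of KEAP1, and whether they do so class by class or gene by gene.

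The 9 libraries held 3011644 to 4725840 reads on features with an Entrez number (median 3758185), and the 36 genes had between 21 and 4800 reads in a library. Levels are given as CPM, the count of a gene relative to the size of its library, with library sizes scaled by the TMM method. KEAP1 mRNA itself was 79.3 ± 13.9 CPM (SD, n = 3) in sgCtrl, 59.99 ± 5.77 in sgKeap1-1 and 80.5 ± 5.98 in sgKeap1-2, and neither difference passed the threshold (edgeR adjusted p = 0.211 and 0.952). Counts cannot tell an edited KEAP1 transcript from an intact one. Of 10 listed NRF2 target genes, 9 were in the table, and 6 rose with sgKeap1-1 and 7 with sgKeap1-2. All 10 hepatocyte marker genes, among them ALB and APOA1, were present. Their summed level was 32659 to 40175 CPM in sgCtrl, 18897 to 23697 CPM in sgKeap1-1 and 15631 to 17417 CPM in sgKeap1-2. Of these markers 6 fell with sgKeap1-1 and 7 with sgKeap1-2, while TTR rose with both guides. Of 10 macrophage markers only CD14, LYZ and FCER1G were in the table, and edgeR, limma-voom and the DESeq2 Wald test called 0 of these 3 with either guide (1 lower with sgKeap1-1 and 1 higher with sgKeap1-2 at an unadjusted p under 0.05 by edgeR). Over all features edgeR called 4.2% with sgKeap1-1 and 10.8% with sgKeap1-2, so 0 of 3 lies near those shares. PTPRC, CSF1R and CD163 had no row. The summed level of the 3 markers present, nearly all of it LYZ, was 965 to 1810 CPM in sgCtrl, 1001 to 2547 CPM in sgKeap1-1 and 688 to 1546 CPM in sgKeap1-2. Of 7 bile duct markers 4 were in the table, and KRT7, CFTR and AQP1 had no row. KRT19 and SPP1 rose with both guides (log2 fold changes 1.28 and 1.48 for KRT19, edgeR adjusted p = 0.00193 and 0.000346, and 2.65 and 3.08 for SPP1, edgeR adjusted p = 0.000482 and 9.09e-05), while SOX9 and EPCAM did not pass. The summed level of these 4 was 831 to 912 CPM in sgCtrl, 1960 to 2297 CPM in sgKeap1-1 and 2047 to 2797 CPM in sgKeap1-2. The hepatocyte and bile duct markers thus moved in the same libraries as the hydrolase genes described below, and their part in those results was not tested. In bulk RNA, fewer cells that make an mRNA and less of that mRNA per cell cannot be told apart.

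Loss of KEAP1 went with higher mRNA levels of a minority of the hydrolase genes and lower levels of fewer still, and most did not pass the threshold. With sgKeap1-1, 3 of the 36 genes rose (GLA, HEXA and AGA) and none fell. With sgKeap1-2, 8 rose (GLA, GAA, HEXA, CTSA, TPP1, GALNS, PSAP and AGA) and 2 fell (GGH and PCYOX1). Each gene was tested by the quasi-likelihood test of edgeR, p-values were adjusted by the Benjamini-Hochberg method over all 11064 features, and the threshold was 0.05. Among all features tested, 4.2% were called with sgKeap1-1, 2.8% higher and 1.4% lower, against 8.33% of the 36 genes called higher. With sgKeap1-2 the share over all features was 10.8%, 5.96% higher and 4.85% lower, against 22.2% of the 36 genes called higher. Beside the count of 0 lower with sgKeap1-1, 1 gene (GGH) was lower at an unadjusted p under 0.05, and limma-voom and the DESeq2 Wald test also called 0. Among the fits that each left out 1 library, the one without sgKeap1-2 replicate 3 moved the first count most: 8 genes rose and 1 fell with sgKeap1-1. The fit of only the groups compared gave 4 higher and 1 lower. With the replicate number as a block, 8 rose and 1 fell with sgKeap1-1. That block added CTSA, CTSB, GAA, GALNS and PSAP as higher and GGH as lower. With sgKeap1-2 it added CTSB, IDS, ARSA and SGSH as higher. The causes were not tested.

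In a separate fit of both KEAP1 guides together against sgCtrl, 9 genes rose, the 8 of sgKeap1-2 and ARSA, and 1 fell (GGH). Over all features 9.64% were called in this fit, 5.51% higher and 4.13% lower. The count of higher genes lay between 6 (without sgCtrl replicate 3) and 11 (without sgKeap1-1 replicate 3 or without sgKeap1-2 replicate 3). GGH lost its call in this fit without sgCtrl replicate 2 (adjusted p = 0.0936 from edgeR) and without sgCtrl replicate 3 (0.0522 from edgeR). The 6 KEAP1 KO libraries all lay above the 3 sgCtrl libraries for 10 genes (CTSA, TPP1, GLA, GAA, HEXA, GALNS, ARSA, SGSH, PSAP and AGA), a pattern that 8.04% of all features showed. They all lay below sgCtrl for GGH alone, a pattern of 6.74% of all features, and for the other 25 genes the libraries overlapped. The median log2 fold change of the 36 genes was 0.30 with sgKeap1-1 and 0.20 with sgKeap1-2, beside medians of -0.00062 and -0.01 over all features tested. Positive values were found for 27 and 23 of the 36 genes, beside 5523 and 5348 of the 11064 features tested. Both counts rest on the same 3 sgCtrl libraries.

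**Figure D1:**
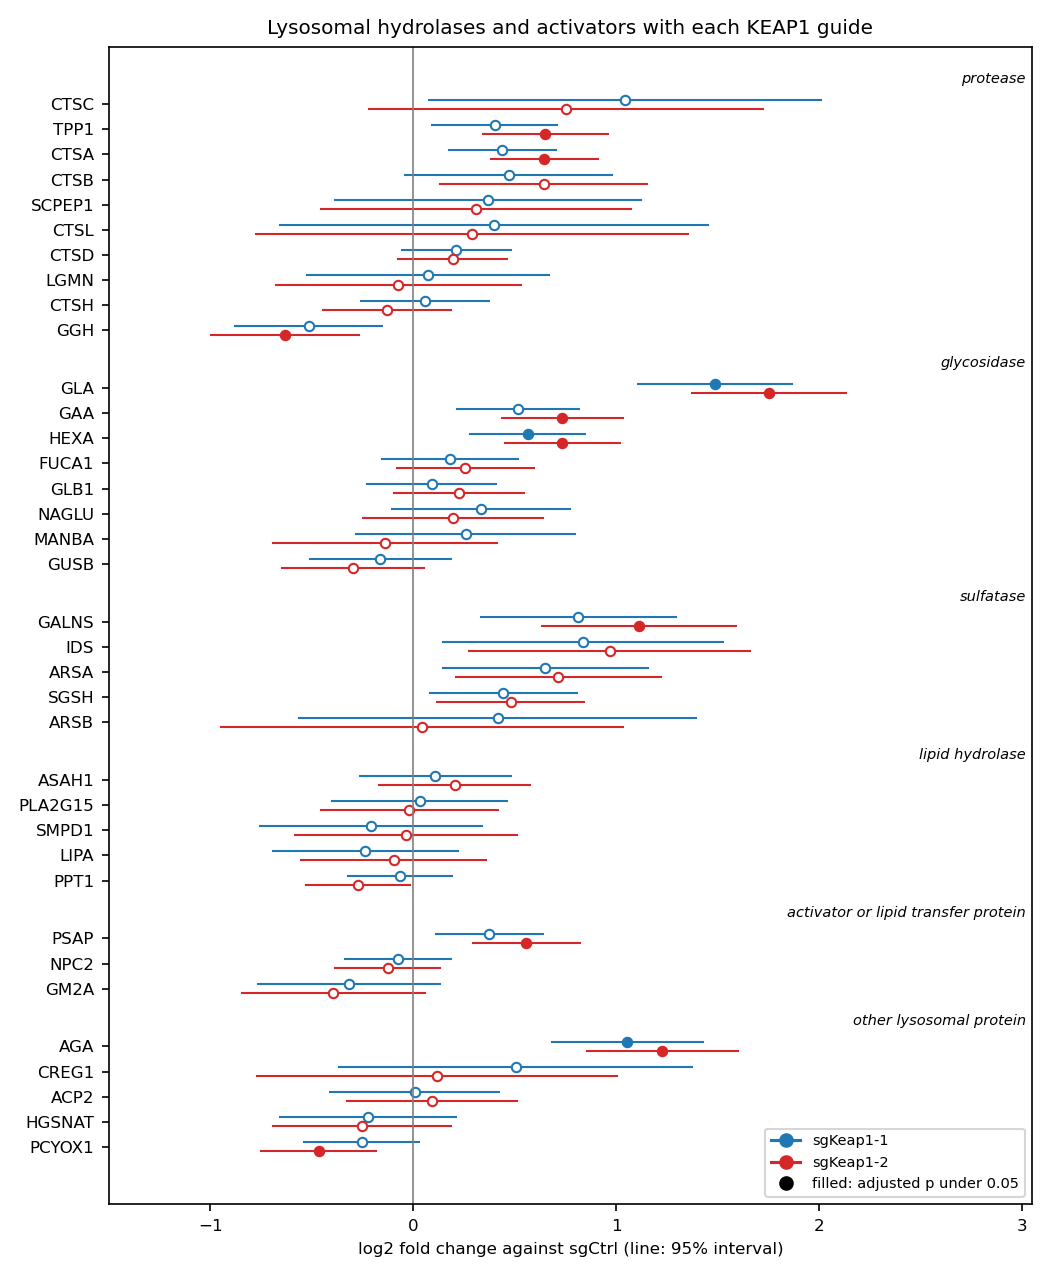
Log2 fold change of each of the 36 genes against sgCtrl (x axis) for sgKeap1-1 (blue) and sgKeap1-2 (red), grouped by class and ordered by the sgKeap1-2 value; lines are 95% intervals from the edgeR fit and filled points have an adjusted p under 0.05. GLA lies farthest to the right at 1.49 and 1.75, the 5 sulfatases lie to the right of 0 with both guides, and none of the 5 lipid hydrolases has a filled point.

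The promoters of some of these genes are shown because the E-box motif of TFEB and TFE3 and the antioxidant response element of NRF2 are read as letters in DNA. The sequences come from RefSeq (GRCh38.p14) and give the 250 bases before the annotated start of each gene, written 5′ to 3′ along the gene's own strand. Capitals mark every match, on either strand, to CACGTG, to the longer TCACGTG that contains it, or to TGACNNNGC, the core of the antioxidant response element; neighbouring capitals can belong to overlapping matches. GLA and AGA are printed because they had the largest rises with both guides, CTSA, GAA and GALNS because they hold TCACGTG and rose with sgKeap1-2, and CTSD and SCPEP1 because they hold TCACGTG and did not pass the threshold.
GLA, chrX:101407926-101408175, minus strand: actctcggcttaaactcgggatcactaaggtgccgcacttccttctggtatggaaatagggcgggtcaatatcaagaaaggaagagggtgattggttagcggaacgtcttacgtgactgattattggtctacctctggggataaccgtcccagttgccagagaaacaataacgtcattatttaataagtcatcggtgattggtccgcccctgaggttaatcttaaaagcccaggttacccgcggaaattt
AGA, chr4:177442438-177442687, minus strand: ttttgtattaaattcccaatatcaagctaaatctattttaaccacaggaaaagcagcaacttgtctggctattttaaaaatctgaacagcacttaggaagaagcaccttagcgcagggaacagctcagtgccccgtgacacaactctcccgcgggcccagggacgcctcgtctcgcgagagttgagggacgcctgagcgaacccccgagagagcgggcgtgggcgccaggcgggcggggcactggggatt
CTSA, chr20:45891085-45891334, plus strand: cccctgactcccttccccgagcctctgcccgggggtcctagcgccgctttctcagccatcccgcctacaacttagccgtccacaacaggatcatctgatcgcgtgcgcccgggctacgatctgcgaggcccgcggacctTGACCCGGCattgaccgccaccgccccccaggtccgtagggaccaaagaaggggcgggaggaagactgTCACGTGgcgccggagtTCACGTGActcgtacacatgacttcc
GAA, chr17:80101331-80101580, plus strand: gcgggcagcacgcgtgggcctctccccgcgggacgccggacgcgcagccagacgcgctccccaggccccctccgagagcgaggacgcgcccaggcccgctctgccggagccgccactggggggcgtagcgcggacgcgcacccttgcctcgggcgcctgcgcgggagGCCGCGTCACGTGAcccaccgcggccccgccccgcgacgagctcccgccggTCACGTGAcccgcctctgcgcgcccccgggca
GALNS, chr16:88856948-88857197, minus strand: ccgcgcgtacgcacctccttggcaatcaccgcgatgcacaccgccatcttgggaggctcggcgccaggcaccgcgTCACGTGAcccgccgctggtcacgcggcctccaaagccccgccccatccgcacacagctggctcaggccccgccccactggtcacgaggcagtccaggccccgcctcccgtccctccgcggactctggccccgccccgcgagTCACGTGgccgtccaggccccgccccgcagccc
CTSD, chr11:1763928-1764177, minus strand: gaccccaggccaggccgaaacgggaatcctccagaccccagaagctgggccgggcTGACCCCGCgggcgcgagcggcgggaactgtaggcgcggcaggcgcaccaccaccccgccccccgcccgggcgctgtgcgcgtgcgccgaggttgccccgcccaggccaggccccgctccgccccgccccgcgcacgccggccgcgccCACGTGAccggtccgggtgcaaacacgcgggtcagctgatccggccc
SCPEP1, chr17:56977881-56978130, plus strand: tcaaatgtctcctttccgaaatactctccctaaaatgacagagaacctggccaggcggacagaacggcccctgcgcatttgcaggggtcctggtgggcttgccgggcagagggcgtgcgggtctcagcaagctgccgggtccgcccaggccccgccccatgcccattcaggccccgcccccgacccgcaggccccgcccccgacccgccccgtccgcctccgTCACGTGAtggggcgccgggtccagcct

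The GLA and AGA windows before the start hold no capitals, so none of these letters is in the 250 bases upstream of the genes that rose most. GLA has 1 match to TGACNNNGC, with the letters TGACAATGC, at base 18 after the start, outside the printed stretch. In CTSA, GAA and GALNS the TCACGTG letters, read on either strand, occur at 2 separate places each, and in CTSD and SCPEP1 at 1. A window of 250 bases before to 50 after the start was found for 25 of the 36 genes. TCACGTG was in 5 of these 25 (20%), beside 3.82% of all 27305 windows and 6.03% of the 8941 windows of tested genes, and CACGTG was in the same 5, beside 7.43% of all windows and 10.3% of those of tested genes. TGACNNNGC was in 8 of 25 (32%), namely CTSA, CTSC, CTSD, CTSL, FUCA1, GAA, GLA and PPT1, beside 13.6% of all windows and 15.4% of those of tested genes. Of these 8, GLA rose with both guides, CTSA and GAA rose with sgKeap1-2, and the other 5 did not pass the threshold. Among genes with a window, TCACGTG was in 3 of 6 that rose with at least 1 guide and in 0 of 1 that fell. It was in 2 of 18 that passed with neither guide. TPP1, which rose with sgKeap1-2, had no match to any of these motifs and is not printed. A match describes letters and is not a measured binding site. HEXA, PSAP and ARSA are among the 11 genes with no window here.

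Glycosidases cut sugar chains from glycolipids, glycoproteins and glycogen. Of the 8 measured, 2 rose with sgKeap1-1 (GLA and HEXA) and 3 with sgKeap1-2 (GLA, HEXA and GAA), and none fell. Over all features 2.8% rose and 1.4% fell with sgKeap1-1, and 5.96% rose and 4.85% fell with sgKeap1-2. For 8 genes the absence of falls lies near those shares. The median log2 fold changes of the class were 0.30 and 0.24. GLA (Entrez 2717) encodes alpha-galactosidase A, the enzyme missing in Fabry disease. Its libraries 1 to 3 read 13.5, 15.0 and 10.9 CPM in sgCtrl, 37.5, 34.9 and 37.9 CPM in sgKeap1-1 and 46.2, 46.1 and 40.2 CPM in sgKeap1-2. No KEAP1 KO library came near the sgCtrl libraries, and the 3 sgKeap1-2 libraries lay above the 3 sgKeap1-1 libraries. GLA rose 2.81-fold with sgKeap1-1 (log2 fold change 1.49, SE 0.18, edgeR adjusted p = 0.000135) and 3.37-fold with sgKeap1-2 (1.75, SE 0.18, edgeR adjusted p = 1.54e-05). The exons of GLA overlap those of RPL36A, a ribosomal protein gene on the other strand, over 557 bases, and the strand setting of the counting is not given. RPL36A read 53.9, 53.7 and 53.8 CPM on average in the 3 groups, with log2 fold changes of -0.01 and 0.00.

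HEXA (Entrez 3073) encodes the alpha subunit of beta-hexosaminidase, the enzyme missing in Tay-Sachs disease. It read 43.99, 40.5 and 45.7 CPM in sgCtrl, 58.9, 67.5 and 66.3 CPM in sgKeap1-1 and 73.0, 69.0 and 75.1 CPM in sgKeap1-2. The 3 groups did not overlap, although the gap between the guides was as small as 69.0 against 67.5 CPM. HEXA rose by a log2 fold change of 0.56 (SE 0.13, edgeR adjusted p = 0.0239) and 0.74 (SE 0.13, edgeR adjusted p = 0.00211). Its call with sgKeap1-1 was lost when any 1 sgCtrl library was left out (edgeR adjusted p = 0.095, 0.0884 and 0.0711 without replicates 1, 2 and 3), and without sgKeap1-1 replicate 2 (0.0905 from edgeR) or 3 (0.0791 from edgeR).

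GAA (Entrez 2548), the acid alpha-glucosidase that digests glycogen in the lysosome and is missing in Pompe disease, read 39.5, 35.0 and 40.2 CPM in sgCtrl, 59.2, 52.7 and 52.3 CPM in sgKeap1-1 and 62.8, 59.8 and 68.8 CPM in sgKeap1-2. All KEAP1 KO libraries were above all sgCtrl libraries. With sgKeap1-2 the rise was 1.67-fold (log2 fold change 0.74, SE 0.14, edgeR adjusted p = 0.00317). With sgKeap1-1 the estimate of 0.52 missed the threshold (SE 0.14, edgeR adjusted p = 0.0542) and passed it without sgKeap1-2 replicate 3 (0.0332 from edgeR). The other 5 glycosidases did not pass the threshold with either guide. FUCA1, which removes fucose, had log2 fold changes of 0.18 and 0.26. GLB1, the beta-galactosidase, had 0.09 and 0.23, with levels of 63.3 to 77.9 CPM in sgCtrl and 67.5 to 96.9 CPM in the KEAP1 KO libraries. NAGLU, which acts on heparan sulfate, had 0.33 and 0.20, MANBA, the beta-mannosidase, 0.26 and -0.14, and GUSB, the beta-glucuronidase, -0.16 and -0.30. The sgKeap1-2 libraries of MANBA read 32.0, 33.7 and 14.5 CPM, so its negative value rests on replicate 3. FUCA1 ranged from 40.8 to 53.8 CPM in sgCtrl and from 47.6 to 60.6 CPM in the KEAP1 KO libraries, NAGLU from 22.5 to 33.7 and from 27.9 to 40.7 CPM, and MANBA from 26.2 to 32.3 and from 14.5 to 39.4 CPM, so the groups overlapped for each. For GUSB the 3 sgKeap1-2 libraries read 28.6 to 29.9 CPM and the 3 sgCtrl libraries 31.0 to 40.5 CPM. How many of all features show such a gap was not counted.

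**Figure D2:**
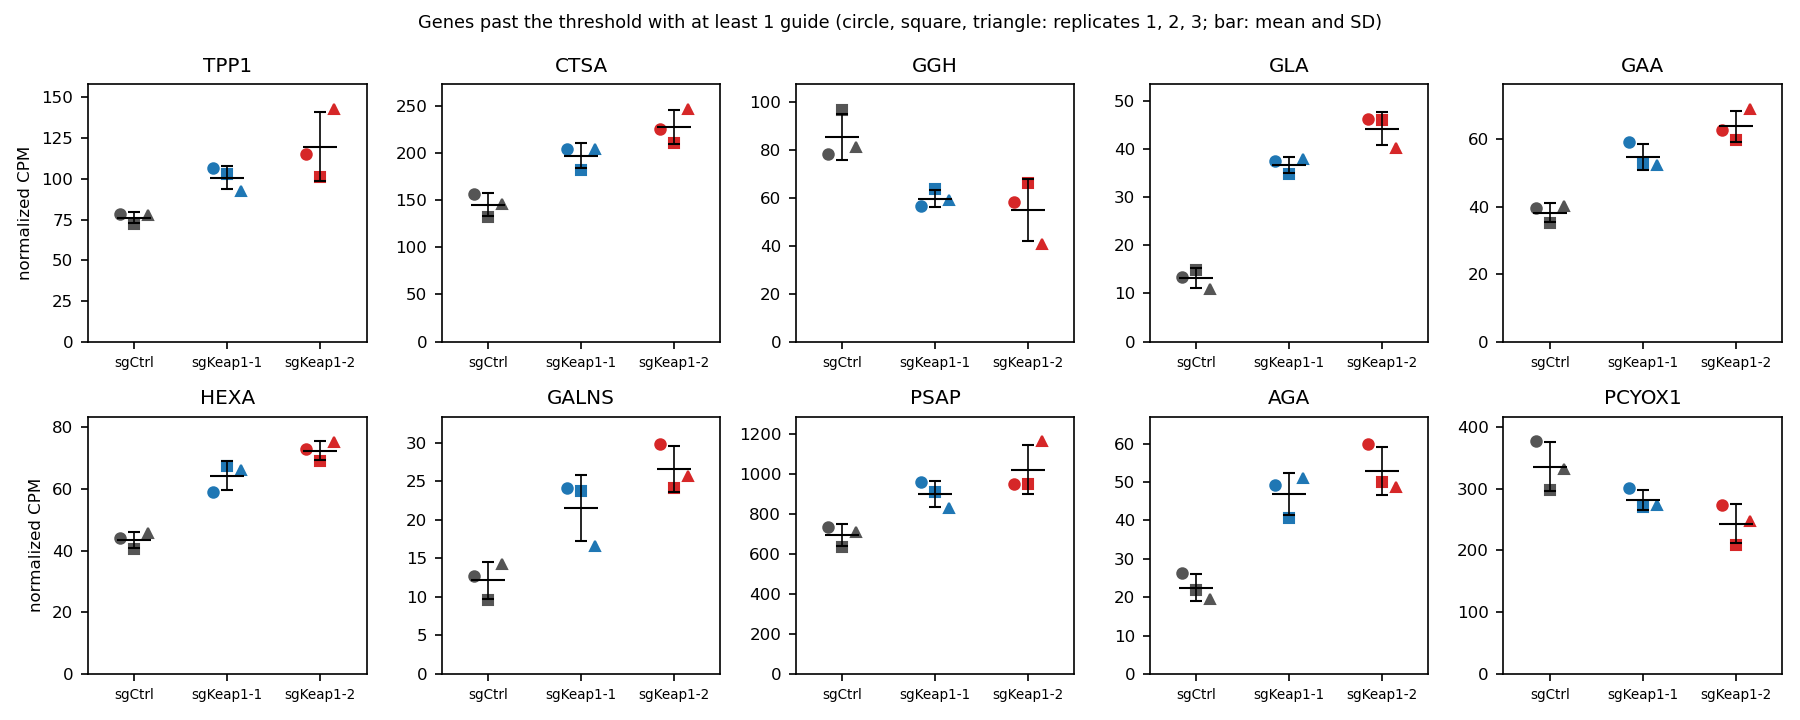
Normalized CPM (y axis, from 0) of the 10 genes past the threshold with at least 1 guide, in sgCtrl (grey), sgKeap1-1 (blue) and sgKeap1-2 (red); circles, squares and triangles are replicates 1, 2 and 3, and bars are the mean and SD of 3 libraries. For the 8 genes that rose, all blue and red points lie above the grey ones; GGH lies below them, and for PCYOX1 the blue points overlap the grey.

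Proteases of the lysosome include the cathepsins and the peptidases that trim their products. Of 10 measured, none passed the threshold with sgKeap1-1, and 2 rose (CTSA and TPP1) and 1 fell (GGH) with sgKeap1-2. Over all features 4.2% passed with sgKeap1-1, and 5.96% rose and 4.85% fell with sgKeap1-2. At an unadjusted p under 0.05, 3 proteases were higher and 1 lower with sgKeap1-1 (over all features 8.37% were higher and 6.63% lower), limma-voom called 0 of them there, and the DESeq2 Wald test called 1 (CTSA). CTSA (Entrez 5476), a carboxypeptidase that also shields beta-galactosidase and neuraminidase from breakdown, read 157, 132 and 146 CPM in sgCtrl, 205, 181 and 205 CPM in sgKeap1-1 and 225, 210 and 247 CPM in sgKeap1-2. The 3 groups did not overlap. CTSA rose 1.57-fold with sgKeap1-2 (log2 fold change 0.65, SE 0.12, edgeR adjusted p = 0.00311), and its value with sgKeap1-1 was 0.44 (SE 0.12, edgeR adjusted p = 0.0611, and 0.0273 without sgKeap1-2 replicate 3). Exons of CTSA overlap those of NEURL2 and PLTP on the other strand, so shared reads are possible.

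TPP1 (Entrez 1200), an acid tripeptidyl peptidase whose loss causes a neuronal ceroid lipofuscinosis, read 78.4, 72.1 and 78.1 CPM in sgCtrl, 106, 103 and 92.8 CPM in sgKeap1-1 and 115, 101 and 143 CPM in sgKeap1-2. All KEAP1 KO libraries were above sgCtrl, with sgKeap1-2 replicate 3 the highest. Its log2 fold changes were 0.40 (SE 0.14, edgeR adjusted p = 0.164) and 0.65 (SE 0.14, edgeR adjusted p = 0.00888). GGH (Entrez 8836), gamma-glutamyl hydrolase, which removes glutamates from folates, was the 1 protease that fell. It read 78.4, 96.6 and 81.4 CPM in sgCtrl, 56.5, 63.6 and 59.2 CPM in sgKeap1-1 and 58.2, 66.1 and 40.9 CPM in sgKeap1-2, with no overlap between sgCtrl and the KEAP1 KO libraries. The fall was -0.63 with sgKeap1-2 (SE 0.17, edgeR adjusted p = 0.0269), and the value was -0.51 with sgKeap1-1 (SE 0.17, edgeR adjusted p = 0.12). The sgKeap1-2 call was lost without any 1 sgCtrl library (edgeR adjusted p = 0.0524, 0.104 and 0.0651 without replicates 1, 2 and 3), without sgKeap1-2 replicate 1 (0.0616 from edgeR) and without sgKeap1-2 replicate 3 (0.0585 from edgeR), and in the fit of only the groups compared (0.0501 from edgeR).

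The cathepsins CTSB and CTSD were, after PSAP, the genes of the set with the most reads. CTSB (Entrez 1508), a cysteine protease, read 432, 619 and 388 CPM in sgCtrl, 630, 874 and 486 CPM in sgKeap1-1 and 750, 885 and 612 CPM in sgKeap1-2. The groups overlapped, since sgCtrl replicate 2 was above sgKeap1-1 replicate 3 and sgKeap1-2 replicate 3, while each KEAP1 KO library was above the sgCtrl library of its own number. CTSB did not pass the threshold in this fit without a replicate term (log2 fold changes 0.47 and 0.64, SE 0.23 each, edgeR adjusted p = 0.389 and 0.112), and passed it with sgKeap1-2 without sgCtrl replicate 2 (0.0346 from edgeR) or without sgKeap1-1 replicate 2 (0.0418 from edgeR). With the replicate number as a block, CTSB passed with both guides (edgeR adjusted p = 0.00595 with sgKeap1-1 and 0.000107 with sgKeap1-2). CTSD (Entrez 1509), an aspartic protease, read 334, 359 and 315 CPM in sgCtrl, 413, 372 and 383 CPM in sgKeap1-1 and 351, 352 and 450 CPM in sgKeap1-2. Its values of 0.21 and 0.19 did not pass (edgeR adjusted p = 0.482 and 0.39), and 2 of the 3 sgKeap1-2 libraries lay within the sgCtrl range.

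CTSC (Entrez 1075), the dipeptidyl peptidase that activates serine proteases, had the largest fold change among the genes that did not pass in the fit of both guides (0.91, beside 0.90 for IDS). It read 38.2, 65.0 and 39.6 CPM in sgCtrl, 73.8, 116 and 103 CPM in sgKeap1-1 and 109, 98.0 and 33.0 CPM in sgKeap1-2. The last library, sgKeap1-2 replicate 3, was the lowest of all 9, and the other 5 KEAP1 KO libraries were above all sgCtrl libraries. The log2 fold changes were 1.04 (SE 0.42, edgeR adjusted p = 0.292) and 0.75 (SE 0.43, edgeR adjusted p = 0.341). Without sgKeap1-2 replicate 3, CTSC passed the threshold with both guides, at 1.05 (edgeR adjusted p = 0.0138) and 1.13 (edgeR adjusted p = 0.00908). CTSL, CTSH, LGMN and SCPEP1, which are the remaining cysteine and serine proteases of the list, had values between -0.13 and 0.40 with adjusted p of 0.674 or more. CTSL ranged from 46.3 to 53.1 CPM in sgCtrl and from 20.8 to 90.0 CPM in the KEAP1 KO libraries, CTSH from 117 to 140 and from 91.5 to 141 CPM, LGMN from 27.6 to 42.9 and from 17.9 to 42.05 CPM, and SCPEP1 from 6.36 to 9.53 and from 5.09 to 14.8 CPM. SCPEP1 had the fewest reads of the set, 317 over all 9 libraries.

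Sulfatases remove sulfate groups from glycosaminoglycans and sulfolipids, and all of them depend on the same activating enzyme, SUMF1. The 5 sulfatases had positive log2 fold changes with both guides, with class medians of 0.65 and 0.72, and 4 of the 5 were higher at an unadjusted p under 0.05 with each guide, where the shares over all features were 8.37% and 12.3%. After adjustment over all features, none passed with sgKeap1-1, where limma-voom also called 0 and the DESeq2 Wald test 1 (GALNS), and GALNS alone passed with sgKeap1-2. At that threshold 2.8% of all features were higher with sgKeap1-1 and 5.96% with sgKeap1-2. GALNS (Entrez 2588), the enzyme missing in Morquio A syndrome, read 12.7, 9.53 and 14.2 CPM in sgCtrl, 24.1, 23.7 and 16.6 CPM in sgKeap1-1 and 29.9, 24.1 and 25.7 CPM in sgKeap1-2. The KEAP1 KO libraries were all above sgCtrl, with sgKeap1-1 replicate 3 nearest to it. GALNS rose 2.16-fold with sgKeap1-2 (log2 fold change 1.11, SE 0.22, edgeR adjusted p = 0.00466), and its value with sgKeap1-1 was 0.81 (SE 0.22, edgeR adjusted p = 0.0579), which passed without sgKeap1-1 replicate 3 (0.0357 from edgeR) or without sgKeap1-2 replicate 3 (0.0444 from edgeR). The counts behind these values are low, 28 reads in the lowest library.

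ARSA (Entrez 410), arylsulfatase A, which desulfates the myelin lipid sulfatide, did not pass with either guide alone and was called in the fit of both guides together (log2 fold change 0.68, edgeR adjusted p = 0.0465). It read 10.1, 8.85 and 7.25 CPM in sgCtrl, 15.8, 13.5 and 11.8 CPM in sgKeap1-1 and 13.9, 12.9 and 16.2 CPM in sgKeap1-2, without overlap between sgCtrl and KEAP1 KO. The call was lost in 8 of the 9 fits that each left out 1 library, with adjusted p up to 0.217 without sgCtrl replicate 3 (edgeR), and held without sgKeap1-1 replicate 3 (0.0387 from edgeR). IDS, which acts on dermatan and heparan sulfate, had log2 fold changes of 0.84 and 0.97 (edgeR adjusted p = 0.212 and 0.0743) on as few as 23 reads in a library. It read 6.36 to 10.9 CPM in sgCtrl and 8.77 to 19.2 CPM in the KEAP1 KO libraries. Of the 9294 annotated exon bases of IDS, 6968 are shared with ENSG00000241489, a gene on the same strand that is not among the genes tested. The effect of this overlap on the IDS counts was not tested. SGSH, which acts on heparan sulfate, had 0.44 and 0.48 (edgeR adjusted p = 0.205 and 0.0915), and its 6 KEAP1 KO libraries, from 35.5 to 48.5 CPM, lay above the sgCtrl libraries, from 27.6 to 34.7 CPM. ARSB, arylsulfatase B, had 0.42 and 0.04, with sgKeap1-2 replicate 3 at 24.7 CPM beside 56.6 CPM or more in every other library.

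The lipid hydrolases were the class without a called gene. PPT1 removes fatty acids from proteins, SMPD1 cleaves the head group from sphingomyelin, ASAH1 splits ceramide, LIPA splits cholesteryl esters and PLA2G15 acts on phospholipids. edgeR called 0 of the 5 with either guide, with 0 at an unadjusted p under 0.05 with sgKeap1-1 and 1 (PPT1, lower) with sgKeap1-2, and limma-voom and the DESeq2 Wald test also called 0. Over all features, 4.2% were called with sgKeap1-1 and 10.8% with sgKeap1-2, where 11% were lower at the unadjusted threshold. For a class of 5 genes these counts lie near the shares over all features. Class medians were -0.07 and -0.03. PPT1, the palmitoyl-protein thioesterase, read 139, 147 and 153 CPM in sgCtrl, 126, 149 and 144 CPM in sgKeap1-1 and 116, 126 and 122 CPM in sgKeap1-2. Its log2 fold change with sgKeap1-2 was -0.27 (95% interval -0.53 to -0.01, edgeR adjusted p = 0.189). The sgKeap1-2 libraries lay below both other groups, and how many of all features show such a gap was not counted. ASAH1, acid ceramidase, had 0.11 (95% interval -0.26 to 0.48) and 0.21 (-0.17 to 0.58). LIPA, acid lipase, had -0.24 (-0.69 to 0.22) and -0.10 (-0.55 to 0.36). SMPD1, acid sphingomyelinase, had -0.21 and -0.03, and PLA2G15, a lysosomal phospholipase, 0.03 and -0.02. Levels in sgCtrl and in the KEAP1 KO libraries were 63.6 to 73.8 and 61.1 to 94.1 CPM for ASAH1, 44.6 to 50.9 and 31.6 to 56.0 CPM for LIPA, 10.9 to 13.8 and 8.496 to 14.1 CPM for SMPD1, and 21.8 to 27.3 and 20.9 to 31.8 CPM for PLA2G15, with overlap for all 4. The interval of ASAH1 reaches 0.58 upward, beyond the HEXA value of 0.56 with sgKeap1-1, so a lack of change is not shown.

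PSAP, GM2A and NPC2 are not enzymes but carry or present lipids to enzymes. PSAP (Entrez 5660) encodes prosaposin, which is cut into the saposins that activate sphingolipid hydrolases, and it took the most reads of the set. It read 735, 633 and 711 CPM in sgCtrl, 959, 910 and 830 CPM in sgKeap1-1 and 950, 949 and 1163 CPM in sgKeap1-2, and the 6 KEAP1 KO libraries were above sgCtrl. The rise passed with sgKeap1-2 (1.47-fold, log2 fold change 0.56, SE 0.12, edgeR adjusted p = 0.00891), and the value with sgKeap1-1 was 0.38 (SE 0.12, edgeR adjusted p = 0.119, and 0.0392 without sgKeap1-2 replicate 3). GM2A, the GM2 activator that HEXA needs to degrade its ganglioside, had negative values of -0.32 and -0.39 (edgeR adjusted p = 0.55 and 0.291). It read 56.8 to 68.4 CPM in sgCtrl and 35.4 to 67.1 CPM with the KEAP1 guides, with sgKeap1-2 replicate 3 the highest of these, and it passed as lower with sgKeap1-2 without that library (-0.70, edgeR adjusted p = 0.0158). NPC2, which hands cholesterol to NPC1, had -0.07 and -0.13, with 198 to 213 CPM in sgCtrl and 166 to 212 CPM in the KEAP1 KO libraries. Of the 3 genes, PSAP alone passed the threshold.

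Of the 5 other lysosomal proteins, which are luminal apart from the membrane enzyme HGSNAT, AGA rose with both guides and PCYOX1 fell with sgKeap1-2. AGA (Entrez 175), which cleaves the bond between asparagine and sugar as glycoproteins are degraded, read 26.2, 21.8 and 19.5 CPM in sgCtrl, 49.2, 40.7 and 51.0 CPM in sgKeap1-1 and 60.03, 49.997 and 48.7 CPM in sgKeap1-2. Every KEAP1 KO library was far above sgCtrl. AGA rose 2.08-fold (log2 fold change 1.06, SE 0.17, edgeR adjusted p = 0.00202) and 2.34-fold (1.23, SE 0.17, edgeR adjusted p = 0.00031). PCYOX1 (Entrez 51449), which oxidizes the prenylcysteine left from degraded prenylated proteins, read 377, 298 and 332 CPM in sgCtrl, 301, 271 and 273 CPM in sgKeap1-1 and 273, 209 and 247 CPM in sgKeap1-2. The sgKeap1-2 libraries lay below sgCtrl, a pattern whose share over all features was not counted, whereas sgKeap1-1 replicate 1 overlapped it. The fall with sgKeap1-2 was -0.46 (SE 0.13, edgeR adjusted p = 0.0368), and -0.25 was measured with sgKeap1-1 (SE 0.13, edgeR adjusted p = 0.412). It was lost without sgCtrl replicate 1 (edgeR adjusted p = 0.176) or 3 (0.0996), without sgKeap1-1 replicate 1 (0.0553) or 3 (0.0524), and without sgKeap1-2 replicate 2 (0.16). Fitting sgKeap1-2 and sgCtrl alone ended it too (edgeR adjusted p = 0.0641), as did no scaling beyond library size (0.0532 from edgeR). ACP2, HGSNAT and CREG1, an acid phosphatase, the acetyltransferase of heparan sulfate breakdown and a secreted lysosomal glycoprotein, did not pass, with values from -0.25 to 0.51. ACP2 ranged from 33.2 to 36.3 CPM in sgCtrl and from 30.7 to 46.3 CPM in the KEAP1 KO libraries, HGSNAT from 24.2 to 39.2 and from 22.8 to 30.5 CPM, and CREG1 from 17.6 to 26.2 and from 9.21 to 41.6 CPM.

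Libraries of the same group differed more for some genes than others. The library sgKeap1-2 replicate 3 was the lowest of all 9 for 10 of the 36 genes and the highest for 11, and over all features it was the lowest for 20.2% and the highest for 19%. The 10 include CTSC (33.0 CPM), CTSL (20.8 CPM), LGMN (17.9 CPM), MANBA (14.5 CPM), ARSB (24.7 CPM) and CREG1 (9.21 CPM). The 11 include CTSA, CTSD, TPP1, GAA, HEXA and PSAP. In the same library GLA and AGA, which had the largest rises, were neither lowest nor highest. The library numbered 2 was the highest of its group for CTSB, CTSL, LGMN and ARSB, with CTSL at 53.1, 89.3 and 90.0 CPM in the 3 groups beside 46.3 to 69.6 CPM in the libraries numbered 1 and 3 other than sgKeap1-2 replicate 3.

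**Figure D3:**
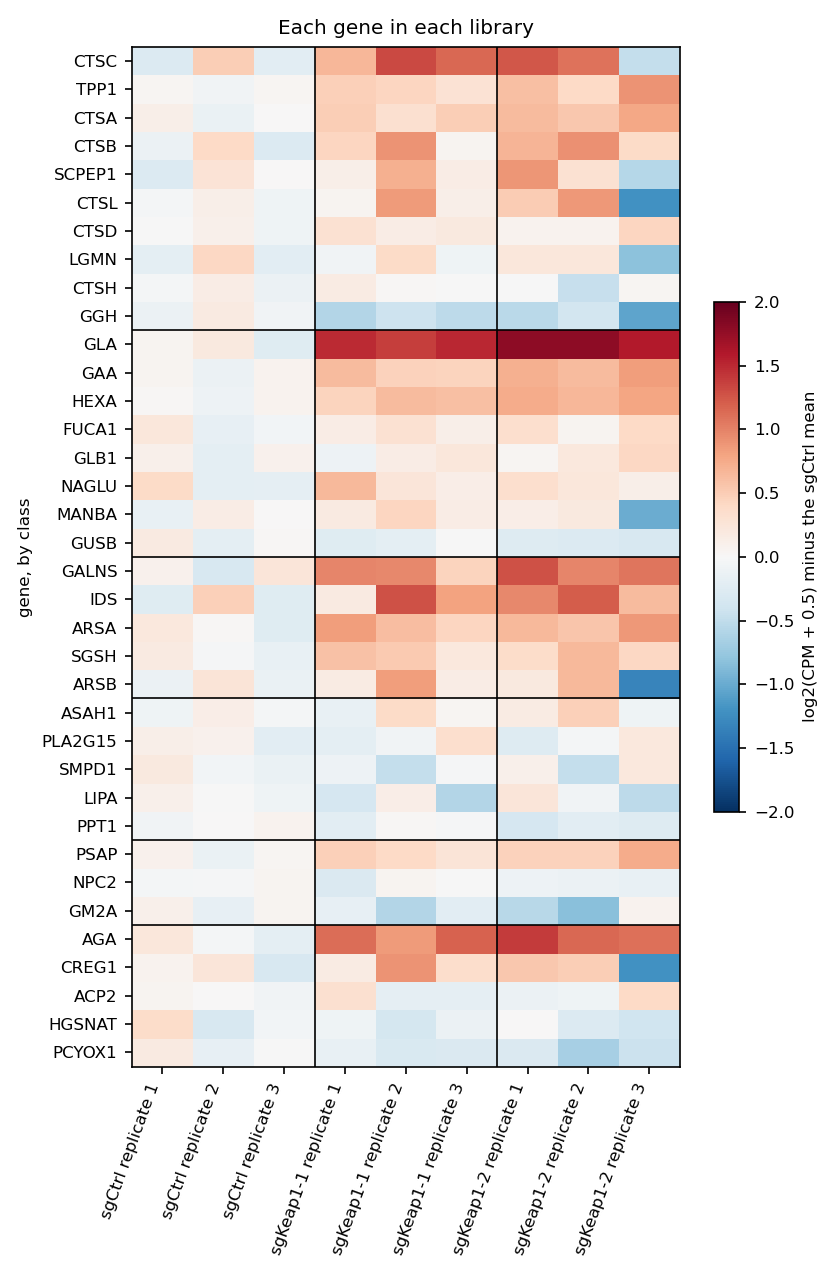
Colour shows log2(CPM + 0.5) minus the mean of the 3 sgCtrl libraries for each of the 36 genes (rows, by class) in each of the 9 libraries (columns). GLA and AGA are red in all 6 KEAP1 KO libraries, GGH is blue in all 6, and the last column, sgKeap1-2 replicate 3, is blue for CTSC, CTSL, LGMN, MANBA, ARSB and CREG1.

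Added up, the 36 genes took 0.340 to 0.359% of reads in sgCtrl, 0.395 to 0.435% in sgKeap1-1 and 0.420 to 0.445% in sgKeap1-2, with no overlap between sgCtrl and KEAP1 KO. Their summed level was 3520 ± 120 CPM (SD, n = 3), 4165 ± 308 CPM and 4324 ± 40.9 CPM. PSAP and CTSB, as the genes with the most reads, made up 32.0% and 28.5% of the difference with sgKeap1-1 and 40.7% and 33.5% with sgKeap1-2, so this sum mostly reflects these 2 genes. The share of PCYOX1, which was lower, was -8.36% and -11.5%. By class, the summed CPM of the glycosidases was 305 ± 24.4, 386 ± 8.00 and 407 ± 6.84 in the 3 groups (SD, n = 3), and that of the proteases 1386 ± 180, 1749 ± 220 and 1832 ± 123. The lipid hydrolases summed to 299 ± 6.44, 289 ± 31.9 and 281 ± 18.2 CPM. Sulfatase sums were 123 ± 11.0, 175 ± 33.6 and 164 ± 41.4 CPM, with sgKeap1-2 replicate 3 at 120 CPM, inside the sgCtrl range. Activators and lipid transfer proteins summed to 961 ± 61.3, 1145 ± 50.2 and 1256 ± 136 CPM. The other lysosomal proteins summed to 446 ± 50.3, 422 ± 21.8 and 384 ± 40.7 CPM. No test was run on these sums, because the genes in them had been chosen with results of these data known.

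**Figure D4:**
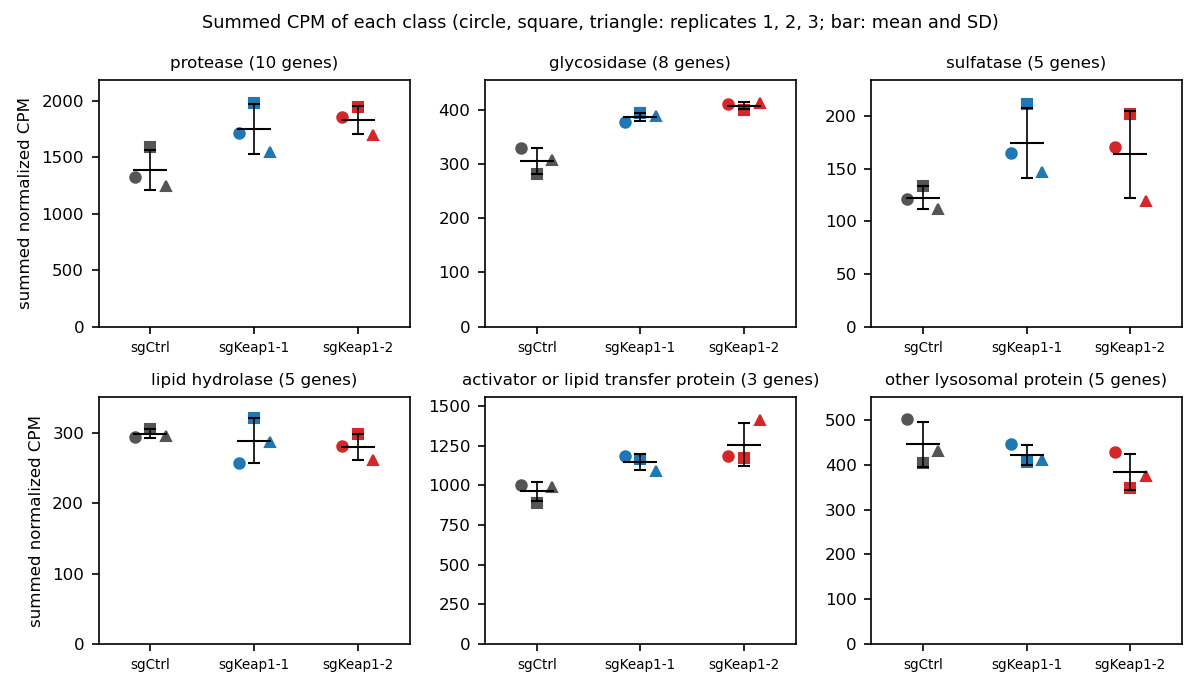
Summed normalized CPM (y axis, from 0) of the genes of each class in each library; colours and symbols are grey for sgCtrl, blue for sgKeap1-1, red for sgKeap1-2, and circles, squares and triangles for replicates 1, 2 and 3, with the mean and SD of 3 libraries as bars. The glycosidase sums of the KEAP1 KO libraries all lie above sgCtrl, whereas the lipid hydrolase sums overlap.

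The guides were then compared with each other. None of the 36 genes differed between sgKeap1-2 and sgKeap1-1 by edgeR's quasi-likelihood test (0 at an unadjusted p under 0.05, and 0 by limma-voom and by the DESeq2 Wald test), where 0.0181% of all features were called. Direction was even, with 18 of the 36 genes higher with sgKeap1-2. All 3 sgKeap1-2 libraries lay above all 3 sgKeap1-1 libraries for 5 genes, CTSA, GLA, GAA, HEXA and GALNS, beside 5.5% of all features, and for GALNS the gap was under 0.1 CPM. For GLA the difference was 0.26 on the log2 scale (95% interval -0.08 to 0.61), for GAA 0.22 (-0.07 to 0.51), for CTSA 0.21 (-0.05 to 0.47) and for AGA 0.17 (-0.18 to 0.52). At the other end stood MANBA at -0.40 (-0.94 to 0.14) and CREG1 at -0.39 (-1.25 to 0.47), both with sgKeap1-2 replicate 3 as the lowest library. The intervals over the 36 genes reached from -1.35 to 0.93, so that differences of that size between the guides are within them, and genes called with 1 guide alone were not shown to respond differently to the other.

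**Figure D5:**
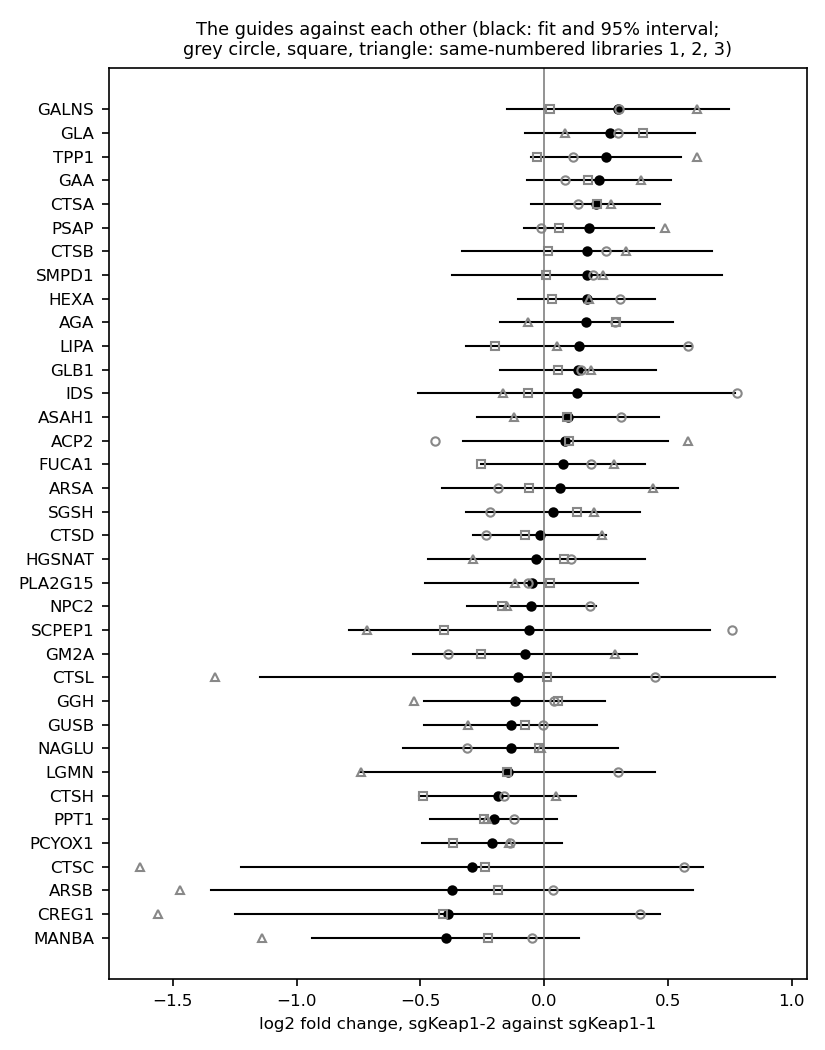
Log2 fold change of sgKeap1-2 against sgKeap1-1 (x axis) for each of the 36 genes, with black points for the edgeR fit and lines for its 95% intervals; grey circles, squares and triangles are the differences between libraries numbered 1, 2 and 3. Every interval crosses 0, and the grey triangles of CTSC, CREG1, ARSB, CTSL and MANBA stand far to the left of the other symbols.

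Genes that work beside the 36 were read from lists written for this purpose. Of 30 other lysosomal hydrolases, 21 were in the table and tested, among them DNASE2. With sgKeap1-1, edgeR, limma-voom and the DESeq2 Wald test called 0 of the 21 (2 higher and 1 lower at an unadjusted p under 0.05 by edgeR), and SMPDL3A, a phosphodiesterase, fell with sgKeap1-2 (log2 fold change -1.40, edgeR adjusted p = 0.0493, from 8.85 ± 3.17 CPM to 3.34 ± 1.74 CPM, SD, n = 3), a call that limma-voom did not make. With sgKeap1-2, 5 of the 21 were higher and 3 lower at an unadjusted p under 0.05 by edgeR, beside 12.3% and 11% of all features, and the DESeq2 Wald test called 1 higher and 1 lower. At the adjusted threshold edgeR called 4.2% of all features with sgKeap1-1 and 10.8% with sgKeap1-2. The medians of the 21 were 0.20 and 0.23, close in size to those of the 36 genes.

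Of 14 genes of hydrolase delivery and maturation, 13 were tested, and SUMF2, a paralog of the sulfatase-activating SUMF1, rose with sgKeap1-2 (0.65, edgeR adjusted p = 0.0318). SUMF1 itself had 0.18 with both guides, and the mannose 6-phosphate receptors M6PR and IGF2R had 0.15 and 0.65 with sgKeap1-1 and 0.34 and 0.54 with sgKeap1-2, none past the threshold. Of 6 cathepsin inhibitors, 5 were tested, and edgeR, limma-voom and the DESeq2 Wald test called 0 with either guide (0 at an unadjusted p under 0.05 by edgeR). Over all features edgeR called 4.2% with sgKeap1-1 and 10.8% with sgKeap1-2, so the edgeR counts of these 2 lists lie near those shares. Of the transcription factors that bind the E-box, TFE3 rose with sgKeap1-2 (0.51, edgeR adjusted p = 0.0442, from 31.8 ± 2.67 CPM to 45.5 ± 2.71 CPM, SD, n = 3) and had 0.12 with sgKeap1-1 (edgeR adjusted p = 0.818), TFEB had -0.39 and -0.13 and did not pass, and MITF and TFEC have no row in the table.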

How the data were processed

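The 3' mRNA libraries were read by the authors with single-end sequencing, trimmed, aligned and assigned to genes, and the deposited values are raw read counts per gene. The submitters' processing notes name FastQC 0.72, cutadapt 1.16, STAR 2.7.5b, featureCounts 1.6.3 and limma 3.40.6. The genome build is named differently in the methods (GRCh37) and in the notes (hg38), and the annotation and strand setting are not given in the sources used here. Every feature of the table exceeds 0.5 CPM in at least 3 libraries. The 1052 rows without an Entrez number (1.34% of reads) were left out, which departs from the planned fit of all rows. Counts were analysed with edgeR 4.0.16 in R 4.3.3 (TMM, filterByExpr, robust quasi-likelihood test, group as the only factor, Benjamini-Hochberg adjustment over all features tested, threshold 0.05). The 2 guides were fitted as separate groups and, in another fit, as 1 group. The script was tested on simulated data in which 200 of 11064 genes were changed in the sgKeap1-2 libraries. There edgeR recovered 29.9% of the 1.5-fold, 70.1% of the 2-fold and 97.0% of the 3-fold changes, and 5.07% of its calls were false. A gene that did not pass the threshold is therefore not shown to be unchanged. Alternatives were limma-voom (limma 3.58.1), the Wald test of DESeq2 1.42.0, other scalings and filters, a replicate block, fits of only the groups compared, and leaving out each library. The genes and lists were chosen with earlier results of these data known. Values in every library are printed for genes called with a guide, the 3 genes with the most counts and the uncalled gene with the largest fold change in the fit of both guides. PPT1 and ARSA were added after their values were seen, and the rest are given by range and fold change. Overlaps between genes were read from a GENCODE annotation on GRCh37 and promoters from RefSeq on GRCh38.p14. By that annotation 19 of the 42 listed genes share exon bases with another gene, and 9 with a gene that was tested. HEXA and CTSD are among the 19, each with a gene on the same strand. Only some of these overlaps are named above, and their effect on the counts was not tested.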

Additional observations from a re-analysis of the deposited data

How the results depend on the processing

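GLA and AGA were called with both guides, and CTSA, TPP1, GAA, HEXA, GALNS and PSAP with sgKeap1-2, under every alternative run, and no value changed sign among those called. As reported, 3 genes were higher and 0 lower with sgKeap1-1, 8 and 2 with sgKeap1-2, and 9 and 1 with both guides. The DESeq2 Wald test gave 6 and 0, 9 and 2, and 12 and 1. limma-voom gave 3 and 0, 8 and 2, and 8 and 1. Without scaling beyond library size the counts were 3 and 0, 8 and 1, and 10 and 1. Fits of only the groups compared gave 4 and 1 with sgKeap1-1 and 8 and 0 with sgKeap1-2, and have no equivalent for both guides. DESeq2 size factors, no filter, a minimum of 10 counts and, added after seeing the data, keeping features without an Entrez number gave the reported counts. Leaving out 1 library moved the genes higher with sgKeap1-1 between 2 and 8 and lower between 0 and 1, with sgKeap1-2 between 8 and 10 and between 0 and 2, and with both guides between 6 and 11 and between 0 and 1. With sgKeap1-1, 2 genes rose without any 1 sgCtrl library or sgKeap1-1 replicate 2, and 8 without sgKeap1-2 replicate 3. The lower count with sgKeap1-2 was 0 without sgCtrl replicate 1 or 3 and 1 without sgCtrl replicate 2, sgKeap1-1 replicate 1 or 3, or sgKeap1-2 replicate 1 or 2. The guides differed in 0 genes under each of these settings. Causes were not tested.

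With the replicate number as a block, 8 genes were higher and 1 lower with sgKeap1-1, 12 and 2 with sgKeap1-2, and 12 and 2 with both guides. The calls it added were CTSA, CTSB, GAA, GALNS, PSAP and, lower, GGH with sgKeap1-1, CTSB, IDS, ARSA and SGSH with sgKeap1-2, and CTSB, IDS, SGSH and, lower, PCYOX1 with both guides. CTSB, which was not called in the reported fit, had edgeR adjusted p = 0.00595 with sgKeap1-1 and 0.000107 with sgKeap1-2. Same-numbered libraries of different groups correlated at -0.013 to 0.52 in their deviations from the group means (mean 0.23, against -0.12 for libraries of different numbers). Of the 9 same-numbered pairs, 7 were above 0.1. Of the 9 libraries, 7 had their highest correlation with a library of their own number, a hint from the data, and sgKeap1-1 replicate 1 and sgKeap1-2 replicate 3 did not. sgKeap1-1 replicate 1 correlated at 0.27 with sgKeap1-2 replicate 3 and at 0.22 with sgCtrl replicate 1. The descriptions give same-numbered libraries a common prefix of unstated meaning, and the numbers were not taken as a pairing. Whether depth limits the precision was not tested, and the largest standard errors were those of CTSL, ARSB and CTSC, which are not the genes with the fewest reads.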
